A study of Mus musculus with 12 samples.

Results

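Mdm4, Mdm2 and Trp53 were followed, gene by gene and transcript by transcript, through 12 RNA-seq libraries of mouse blood stem and progenitor cells. The 3 genes were chosen by name, as the p53 protein's gene and its 2 main inhibitors, out of 20696 genes with at least 1 read. Their 29 annotated transcripts are 14 of Mdm4, 9 of Mdm2 and 6 of Trp53. The cells were Flk2-negative cells of the lineage-negative, Sca-1-positive, Kit-positive (LSK) bone marrow compartment, and each library came from its own numbered mouse. There were 3 libraries of each of 4 genotypes: Wild-type; Mdmx-Tg, which carry a transgene for MDMX, the protein of Mdm4; Pu.1-URE-/-, in which a distal enhancer of the gene for the myeloid factor PU.1 (the URE, or upstream regulatory element) is missing; and Mdmx-Tg/Pu.1-URE-/-, which carry both changes. The promoter and construct of the transgene, the age of the mice and the strain are not given in the sources used here.

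p53, the product of Trp53, is a transcription factor that is made in most cells and kept low by rapid breakdown. Mdm2 is a ubiquitin ligase that marks p53 for breakdown and is itself a p53 target gene, which closes a feedback loop. MDMX is a relative of Mdm2 that binds the activation domain of p53 and pairs with Mdm2 through its RING domain, and blood stem cells depend on the balance of these proteins.

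Libraries held 47271286 to 55067735 estimated reads. Kit (158 to 369 CPM, reads per 1000000) and Ly6a, which encodes Sca-1 (17.8 to 82.9 CPM), were read in every library. Flt3, which encodes Flk2, stood at 6.44 to 55.2 CPM. All CPM in this paragraph are without edgeR's TMM scaling of library sizes. The summed level of 12 neutrophil genes was 3.64 to 19.5 CPM in the 6 libraries with the element, where 3 of them had no read in Wild-type and 5 had none in Mdmx-Tg. It was 24069 to 84002 CPM in the 6 libraries without the element. Most of this came from Ngp (11695 to 44189 CPM) and Camp (7565 to 27134 CPM). Not all 12 rose: Mmp8 had no read in any of these 6 libraries. Of the 12, 1 had no read in Pu.1-URE-/- and 2 had none in the double mutant. The sum of 8 genes of granulocyte-monocyte progenitors was 970.0 to 3044 CPM with the element and 10377 to 48286 CPM without it. The sum of 8 erythroid genes had a median of 2864 CPM in Wild-type, 628 in Mdmx-Tg, 636 in Pu.1-URE-/- and 86.2 in the double mutant. The part of these groups of genes in the results that follow was not tested. Immunoglobulin genes took 0.131% to 31.2% of the reads of a library, with the highest share in Wild-type 1. In bulk RNA, fewer cells of a type and less RNA per cell cannot be told apart.

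Mdm4 lies on chromosome 1 (132959484 to 133030561, minus strand), Mdm2 on chromosome 10 (117688875 to 117710758, minus strand) and Trp53 on chromosome 11 (69580359 to 69591873, plus strand), in GRCm38 coordinates. The sequences below are from the GENCODE M21 transcripts of that build and show the splice junctions by which the transcripts of each gene are told apart, because the results turn on which transcript of a gene took the reads. Each is written 5′ to 3′ on the strand of the gene and spans 1 intron, which is left out.

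The first pair shows a tandem acceptor of Mdm4 at the join of exons 2 and 3 (chr1:133012682-133018806, minus strand), where the capitals mark 3 bases that Mdm4-201 has and Mdm4-210 lacks, so that this exon is 78 bases long in the first and 75 in the second.
Mdm4-201: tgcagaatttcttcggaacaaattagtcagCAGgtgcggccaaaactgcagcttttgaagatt
Mdm4-210: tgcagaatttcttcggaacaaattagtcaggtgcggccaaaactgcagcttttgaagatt

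The next pair shows the join at the end of the 56-base exon 5 of Mdm4, with the exon that follows in capitals. Mdm4-201 (chr1:133004692-133009166, minus strand) goes on into a 68-base exon, which Mdm4-214 (chr1:133003861-133009166, minus strand) leaves out. Leaving it out shifts the reading frame, which is how the short MDMX form known as MDMX-S arises, and Mdm4-214 is annotated to nonsense-mediated decay, the pathway that removes transcripts with an early stop.
Mdm4-201: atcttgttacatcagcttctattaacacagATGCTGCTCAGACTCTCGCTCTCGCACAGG
Mdm4-214: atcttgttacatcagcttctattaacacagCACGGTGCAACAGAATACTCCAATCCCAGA

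In Mdm2 the difference shown is a 97-base exon, exon 8 of the full-length Mdm2-201 (chr10:117696020-117696410, minus strand), which Mdm2-209 (chr10:117695039-117696410, minus strand) leaves out. Mdm2-209 also starts inside exon 2 of Mdm2-201 and so lacks its 207-base exon 1. Capitals again mark the exon that follows the join, and Mdm2-209 is annotated to nonsense-mediated decay.
Mdm2-201: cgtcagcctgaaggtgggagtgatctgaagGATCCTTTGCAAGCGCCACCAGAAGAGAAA
Mdm2-209: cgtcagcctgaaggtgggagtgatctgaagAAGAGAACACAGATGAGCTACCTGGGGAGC

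In Trp53 the difference lies at the last intron. Trp53-201 uses the acceptor of the standard p53 protein (chr11:69590733-69591394, plus strand) and Trp53-202 an acceptor 96 bases upstream (chr11:69590733-69591298, plus strand), which gives p53 another C-terminal end; capitals mark exon 11.
Trp53-201: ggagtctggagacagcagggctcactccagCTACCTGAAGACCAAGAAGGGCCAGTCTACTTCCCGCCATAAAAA
Trp53-202: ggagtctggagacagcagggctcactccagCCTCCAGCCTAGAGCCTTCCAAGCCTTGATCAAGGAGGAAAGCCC

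**Figure D1:**
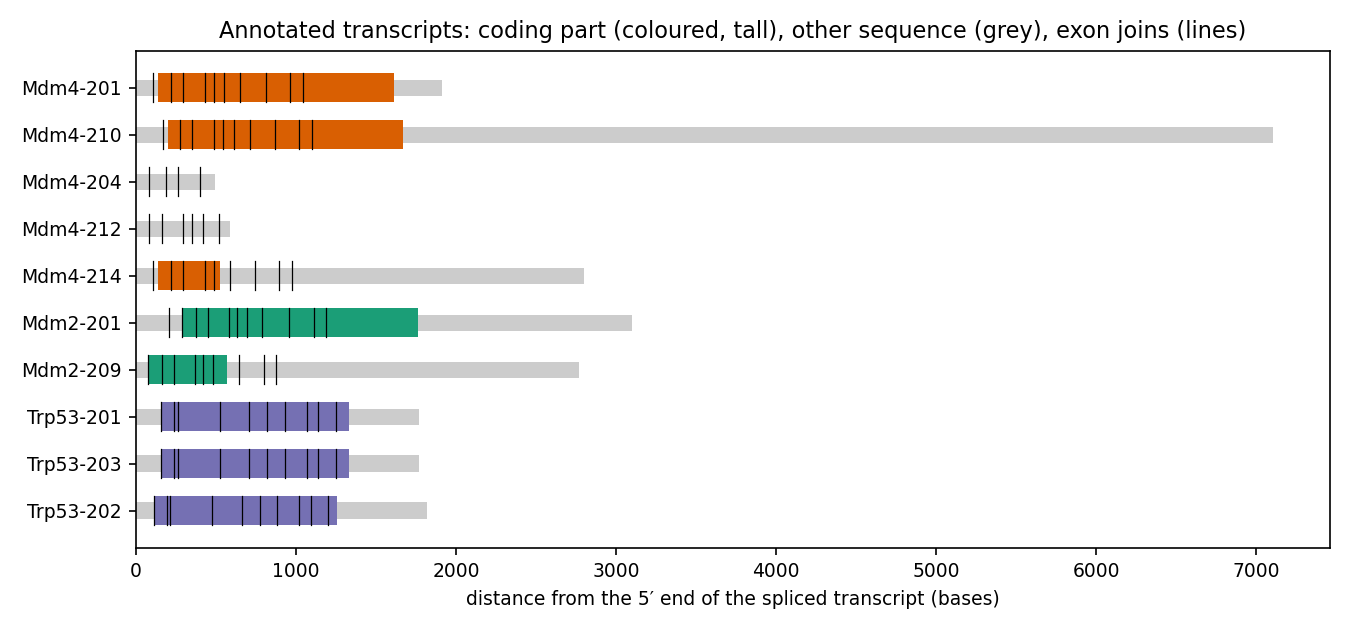
Annotated exon structure of 10 transcripts of the 3 genes, drawn to scale by distance in bases from the 5′ end of the spliced transcript. Tall coloured bars are coding sequence (orange Mdm4, green Mdm2, purple Trp53), low grey bars are other sequence and black lines are exon joins; Mdm4-210 is set apart by its long 3′ end, 7105 bases in all against 1914 for Mdm4-201.

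The first comparison asks what the transgene does to the RNA of the gene it carries, over both backgrounds. Mdm4 was higher in all 6 transgene carriers than in any of the 6 other libraries. Its levels were 77.9, 70.9 and 35.8 CPM in libraries 1 to 3 of Wild-type and 93.9, 56.2 and 90.3 CPM in those of Pu.1-URE-/-. These CPM and all that follow carry edgeR's TMM scaling of library sizes, unlike those of the cell type genes above. The Mdmx-Tg libraries held 535.0, 414 and 163 CPM, and the double mutants, Mdmx-Tg/Pu.1-URE-/-, held 353, 163.2 and 209.8 CPM. The groups do not overlap, and the lowest carrier, Mdmx-Tg 3, lies above the highest non-carrier, Pu.1-URE-/- 1.

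Averaged over both backgrounds, the log2 change of Mdm4 was 2.09 ± 0.33 (SE; 95% interval 1.37 to 2.82), a 4.26-fold difference. By p, Mdm4 ranks 7 of 15012 genes, but its edgeR adjusted p = 0.112 (Benjamini-Hochberg over all genes) misses the threshold of 0.05, and so did every gene. The share of genes called was 0%, 2453 genes had an unadjusted p below 0.05 (16.3%), and groups that do not overlap with carriers higher were found for 0.626% of genes. DESeq2 called 1024 genes in the same contrast, Mdm4 among them (adjusted p = 1.79e-08), and limma-voom 1. In edgeR Mdm4 passed when Mdmx-Tg 3, its lowest carrier, was left out (log2 change 2.25, adjusted p = 0.0190), and with an offset for transcript length the change was 3.71 (adjusted p = 0.0423). Over all single libraries left out, its edgeR adjusted p ran from 0.0190 to 0.289, and the highest over 23 alternatives was 0.407.

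Mdmx-Tg carried a mean of 370.6 ± 190 CPM of Mdm4 (SD, n = 3), the double mutant 242 ± 98.8, Pu.1-URE-/- 80.1 ± 20.8 and Wild-type 61.5 ± 22.5. The upper pair in this order overlap, and so do the lower pair. Mdmx-Tg against Wild-type gave a log2 change of 2.59 ± 0.48 (edgeR adjusted p = 0.259), and the double mutant against Pu.1-URE-/- gave 1.59 ± 0.46, a 3.02-fold difference (edgeR adjusted p = 0.406). In neither contrast do the groups overlap, which held with the carriers higher for 6.61% and 9.89% of genes. edgeR called no gene in either (0%), with an unadjusted p below 0.05 for 1576 genes (10.5%) and 1601 genes (10.7%), while DESeq2 called 330 and 329 and limma-voom 0 in both. DESeq2 called Mdm4 in both (adjusted p = 1.48e-06 and 0.0283), and without Mdmx-Tg 3 edgeR called it against Wild-type (log2 change 2.95, adjusted p = 0.0319). Over all single libraries left out, the edgeR adjusted p of Mdmx-Tg against Wild-type ran from 0.0319 to 0.557.

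The interaction, the difference between those effects, was -0.996 ± 0.64 on the log2 scale (edgeR adjusted p = 0.925), with a 95% interval of -2.39 to 0.40. edgeR called no gene for an interaction (0%; 871 had an unadjusted p below 0.05, or 5.8%), DESeq2 called 194 and limma-voom 0. In both carrier genotypes library 1 was the highest in Mdm4. Their mouse numbers fall in 1 run of numbers, as do those of library 1 of Wild-type and of Pu.1-URE-/-, and with the run as a factor the averaged transgene change was 2.13 (edgeR adjusted p = 0.0589) and the interaction -0.107. With the transcript length offset the interaction was -1.62, and it passed in neither.

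Mdm2 did not pass in the transgene contrast. Its levels were 40.4, 42.0 and 34.5 CPM in Wild-type, 50.3, 50.1 and 33.3 in Mdmx-Tg, 77.3, 36.97 and 50.9 in Pu.1-URE-/- and 59.9, 59.2 and 62.4 in the double mutant. Carriers and non-carriers overlap over most of their range. The averaged log2 change was 0.16 (95% interval -0.25 to 0.58, edgeR adjusted p = 0.732).

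Trp53 likewise did not pass. Its levels were 325, 379 and 416 CPM in Wild-type, 252, 161 and 372.5 in Mdmx-Tg, 265, 319 and 292 in Pu.1-URE-/- and 285, 330.4 and 253 in the double mutant. Mdmx-Tg 2 was the lowest of all libraries and Wild-type 3 the highest. The averaged log2 change was -0.26 (95% interval -0.67 to 0.14, edgeR adjusted p = 0.530), and Mdmx-Tg against Wild-type gave -0.51 ± 0.26 (edgeR adjusted p = 0.517). The groups overlap, because Mdmx-Tg 3 lies among the Wild-type libraries.

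**Figure D2:**
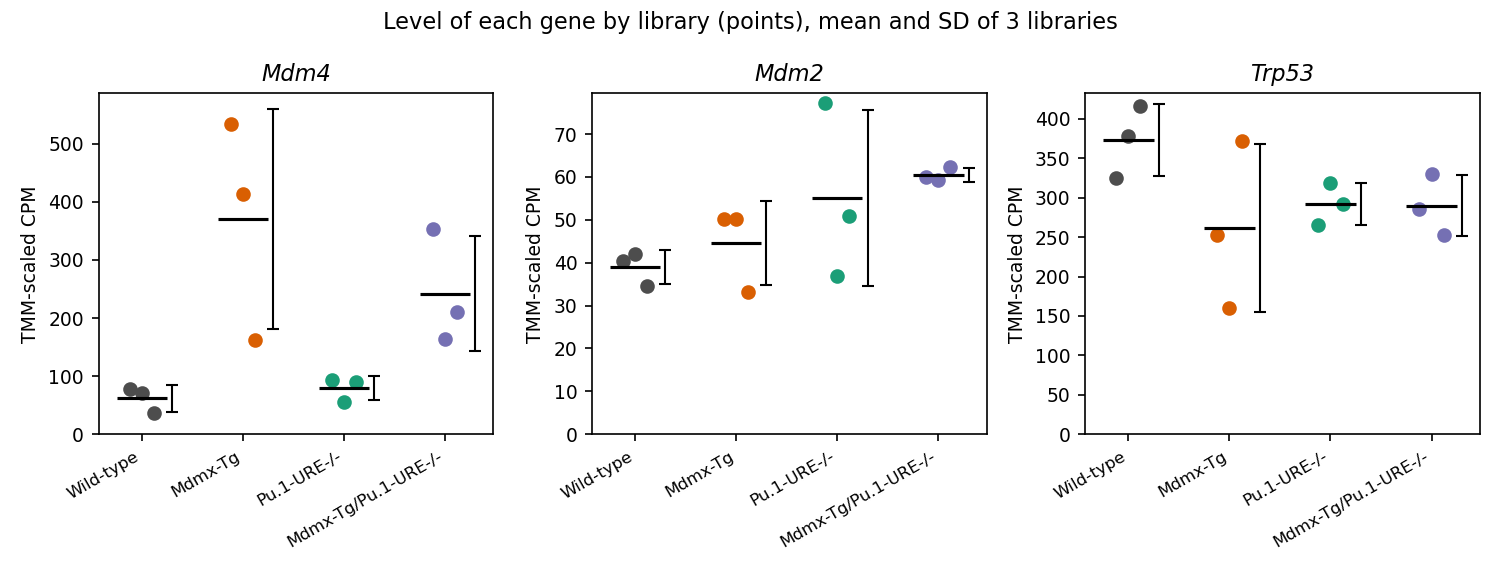
TMM-scaled CPM of Mdm4, Mdm2 and Trp53 (y axis, linear from 0) in each of the 4 genotypes; points are libraries, horizontal bars the mean and vertical bars the SD of 3 libraries. Mdm4 is the gene whose carriers and non-carriers do not overlap, with carriers from 163 to 535.0 CPM and the others from 35.8 to 93.9.

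The second comparison asks whether loss of the PU.1 element changes the 3 genes, with 6 libraries in each group. None of the 3 was called, while 1785 of 15012 genes were (11.9%). Mdm2 came closest: its levels, given above, were 33.3 to 50.3 CPM with the element and 36.97 to 77.3 CPM without it, and the ranges overlap through Pu.1-URE-/- 2. Its log2 change was 0.47 ± 0.19 (SE; 95% interval 0.05 to 0.89), a 1.38-fold difference. It missed the threshold (edgeR adjusted p = 0.138), with an unadjusted p below 0.05, as for 26.9% of genes in this contrast.

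In Mdm4 the log2 change without the element was -0.12 ± 0.32 (edgeR adjusted p = 0.872) and in Trp53 -0.10 ± 0.18 (edgeR adjusted p = 0.783). Both signs turned in some of the alternative fits. Within 1 transgene state, 3 libraries against 3, the groups did not overlap in a pair of cases. Trp53 was lower in every Pu.1-URE-/- library than in every Wild-type library (-0.36 ± 0.26, edgeR adjusted p = 0.527), where 4.71% of genes were called and 13.7% had groups apart in this direction. With the run of mouse numbers as a factor this change of Trp53 turned to 0.085. Mdm2 was higher in every double mutant than in every Mdmx-Tg library (0.44 ± 0.27, edgeR adjusted p = 0.455), where 2.32% were called and 11.9% had groups apart in this direction.

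By mean level, Mdm2 was ordered from the double mutant (60.5 ± 1.67 CPM, SD, n = 3) through Pu.1-URE-/- (55.0 ± 20.5) and Mdmx-Tg (44.6 ± 9.77) to Wild-type (38.99 ± 3.98), and each neighbouring pair differs by less than the larger SD of the pair. For Trp53 the order ran from Wild-type (373.3 ± 45.7 CPM) through Pu.1-URE-/- (292 ± 26.9) and the double mutant (289.6 ± 38.8) to Mdmx-Tg (262 ± 106), and the neighbours after Wild-type differ by less than the larger SD of the pair.

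**Figure D3:**
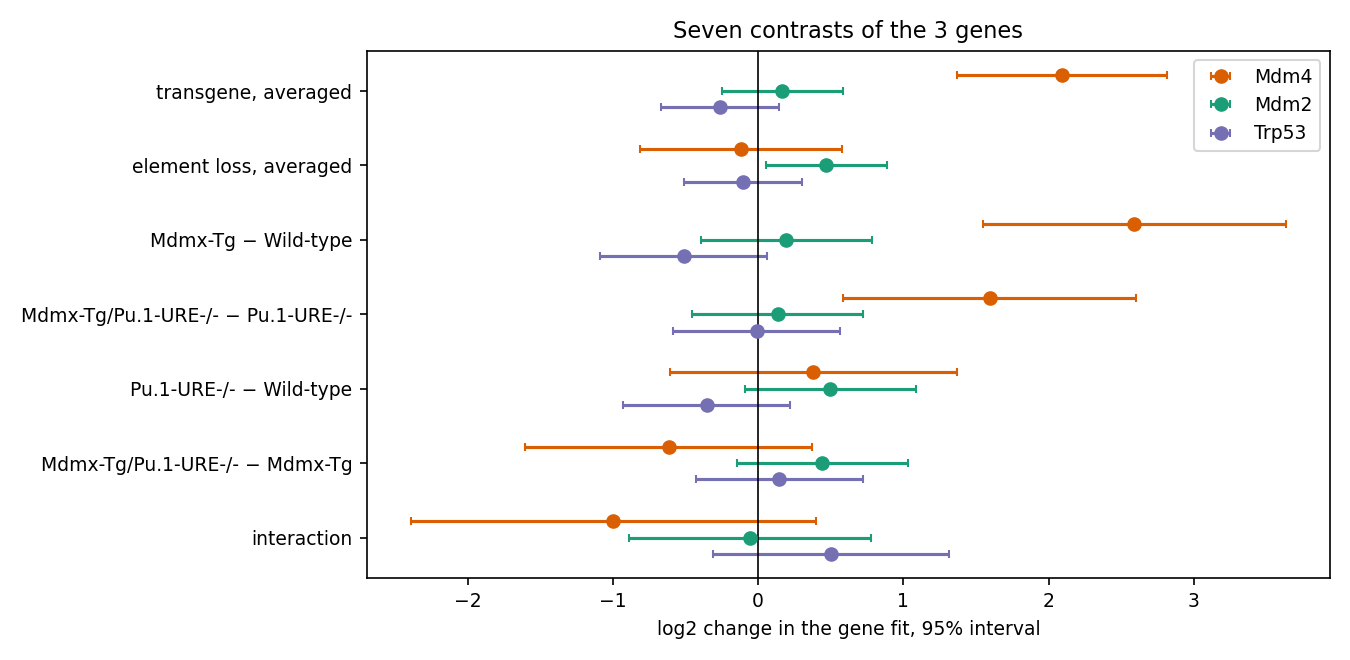
Log2 change of each gene (x axis, point with 95% interval) in 7 contrasts of the edgeR gene fit (y axis). Mdm4 lies clear of 0 in the transgene contrasts, at 2.09 averaged over both backgrounds, and Mdm2 in the averaged element contrast, at 0.47, and neither passes after adjustment over all genes.

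The extra Mdm4 reads were not spread over its transcripts. Mdm4-201 has 11 exons, 1914 bases and a 3′ untranslated region of 302 bases, and its coding sequence of 1470 bases is 3 longer than that of Mdm4-210 (1467) through the tandem acceptor shown above. None of its bases or junctions is its own, so its reads are told from those of other transcripts by the model that assigns them. In Wild-type it was assigned 106, 0 and 0 estimated reads, and in Pu.1-URE-/- 145, 143 and 0. In Mdmx-Tg it had 22274, 16389 and 6452 reads, and in the double mutant 12128, 4477 and 5742. Every carrier was assigned at least an order of magnitude more reads than every non-carrier, and 3 of the non-carriers were assigned 0.

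The fitted log2 change of Mdm4-201 between carriers and non-carriers was 7.37 ± 1.51 (SE), with edgeR adjusted p = 0.218 over 45740 transcripts, of which 0.0175% were called. Its size rests on few reads in the non-carriers: without Wild-type 1 it was 11.6 (adjusted p = 0.123). Relative to the other transcripts of Mdm4, use of Mdm4-201 rose by 5.31 on the log2 scale, with adjusted p = 4.68e-05 in edgeR's test of isoform use. This test called 0.114% of 40423 transcripts. It pools the spread over the transcripts of a gene as if they were independent, though overlapping transcripts share reads. By gene (Simes values), Mdm4 passed with adjusted p = 9.89e-05, as did 0.621% of 9498 genes. The call of Mdm4-201 held in each of 16 alternatives (adjusted p 6.99e-09 to 9.25e-04), though without Wild-type 1 the change in use was 9.43.

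Mdm4-210 is the other full-length coding transcript of 11 exons, with a 3′ untranslated region of 5436 bases, and 3684 of its bases are in no other transcript. It had 3154, 3614 and 2059 reads in Wild-type, 2323, 2789 and 1799 in Mdmx-Tg, 3691, 2870.1 and 4087 in Pu.1-URE-/-, and 3199.9, 3278 and 3758 in the double mutant. Carriers and non-carriers overlap throughout, and the log2 change was -0.24 ± 0.23 (edgeR adjusted p = 0.766). Its mean level was 6.62 ± 1.91 TPM (transcripts per 1000000, a scale that allows for length) in Wild-type, 6.12 ± 1.70 in Mdmx-Tg, 9.66 ± 1.39 in Pu.1-URE-/- and 9.99 ± 1.38 in the double mutant (SD, n = 3 each). Within each background these means differ by less than 1 SD, and in the element contrast the log2 change of Mdm4-210 was 0.40 ± 0.23 (edgeR adjusted p = 0.432).

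As a share of the gene's summed TPM, a measure per transcript length, Mdm4-201 made up 54.9%, 62.5% and 60.1% in Mdmx-Tg and 50.2%, 46.2% and 51.9% in the double mutant. It made up 0% to 12.8% in the 6 other libraries. Mdm4-210 made up 1.41% to 8.34% in carriers against 34.4% to 67.4% in non-carriers, and its own test of use did not pass (edgeR adjusted p = 0.159). As a share of estimated reads, which favours a long transcript, its mean was 13.8% in Mdmx-Tg and 30.4% in the double mutant against 90.6% in Wild-type and 86.5% in Pu.1-URE-/-. The ratio of Mdm4-201 to Mdm4-210 in TPM was 39.0, 23.8 and 14.6 in Mdmx-Tg, 15.45, 5.54 and 6.22 in the double mutant and at most 0.202 elsewhere. The ratio was higher in Mdmx-Tg than in the double mutant in all but the pair of Mdmx-Tg 3 and Mdmx-Tg/Pu.1-URE-/- 1, and this difference was not tested.

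**Figure D4:**
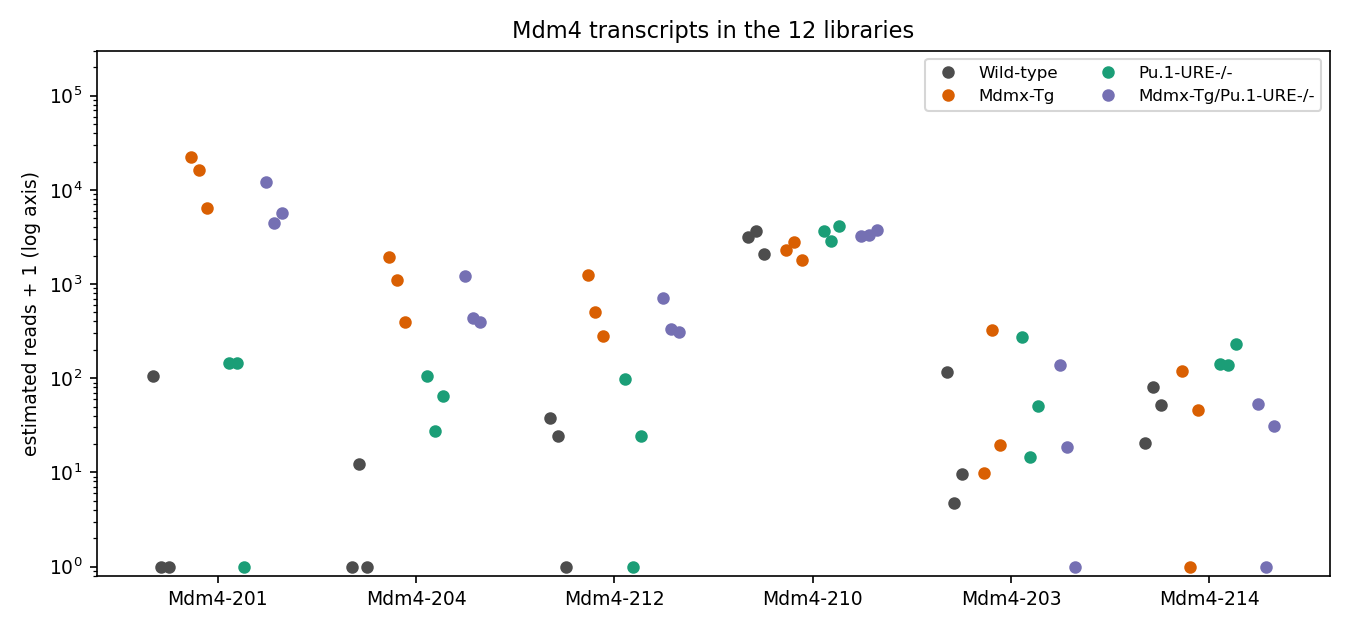
Estimated reads plus 1 (y axis, log scale) of 6 Mdm4 transcripts (x axis), with 1 point per library coloured by genotype. Mdm4-201, Mdm4-204 and Mdm4-212 separate the carriers from the others, and Mdm4-210 lies between 1799 and 4087 reads in all 12.

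A pair of shorter transcripts was also assigned more reads in carriers. Mdm4-204 is a retained-intron transcript of 496 bases that covers the first 5 exons and runs 40 bases into the intron after the fifth, bases found in no other transcript. It had 1937, 1096 and 392 reads in Mdmx-Tg and 1208, 437 and 392 in the double mutant, against 0 to 104 in the non-carriers. Mdm4-212, a non-coding transcript of 587 bases that skips the 161-base exon 8, had 279.8 to 1243 reads in carriers and 0 to 97.7 in non-carriers. Mdm4-212 has 1 junction but no base of its own, and Mdm4-204 has no junction of its own. Most of their sequence is thus shared, and their reads too rest on the model that assigns them. Coverage of the junction and of the 40 bases was not examined. The groups do not overlap for either, which held for 0.295% of transcripts with carriers higher. Neither passed in the transcript fit (edgeR adjusted p = 0.175 and 0.304) or in the test of use.

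As a ratio to the TPM of Mdm4-201, Mdm4-204 stood at 0.375 to 0.619 in the 6 carriers and Mdm4-212 at 0.1395 to 0.338. Over its transcripts other than Mdm4-201, Mdm4-204 and Mdm4-212, Mdm4 held 11.4 ± 4.58 TPM in carriers and 11.35 ± 3.76 TPM in non-carriers (SD, n = 6 each). The transcripts left out here were picked because they differ between these groups, so this is a description of the remainder and no test. Outside Mdm4-201, Mdm4-204, Mdm4-212 and Mdm4-210, the other transcripts were low or uneven, and Mdm4-202, Mdm4-208, Mdm4-209, Mdm4-211 and Mdm4-213 fell below the count filter.

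The 2 forms of the tandem acceptor exon divide most of these transcripts. The 78-base form belongs to Mdm4-201, Mdm4-203, Mdm4-212, Mdm4-213 and Mdm4-214, and the 75-base form to Mdm4-202, Mdm4-204, Mdm4-206 and Mdm4-210. Of the reads assigned to either set, transcripts with the 78-base form took 84.7%, 81.6% and 75.6% in Mdmx-Tg and 74.6%, 56.5% and 59.4% in the double mutant. In Wild-type they took 8.04%, 2.88% and 2.82% and in Pu.1-URE-/- 14.6%, 9.16% and 7.21%. These are sums of whole transcripts, not counts of reads that cross the junction.

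The transcripts annotated to nonsense-mediated decay, Mdm4-214 without the 68-base exon and Mdm4-203 with 39 bases of it, were rare. Mdm4-214 had 19.4, 80.6 and 51.3 reads in Wild-type, 118, 0 and 44.9 in Mdmx-Tg, 140.0, 136 and 229 in Pu.1-URE-/- and 52.6, 0 and 29.8 in the double mutant. These are unscaled estimates, all exon bases of Mdm4-214 occur in other transcripts, and differences between single genotypes were not tested. In neither averaged contrast did Mdm4-214 pass (edgeR adjusted p = 0.796 for the transgene and 0.941 for the element). Mdm4-203 was uneven, from 0 to 321 reads in carriers and 3.68 to 276 in the others. Together both transcripts held 0.174 to 3.10 TPM in carriers and 0.477 to 4.002 TPM in the others.

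**Figure D5:**
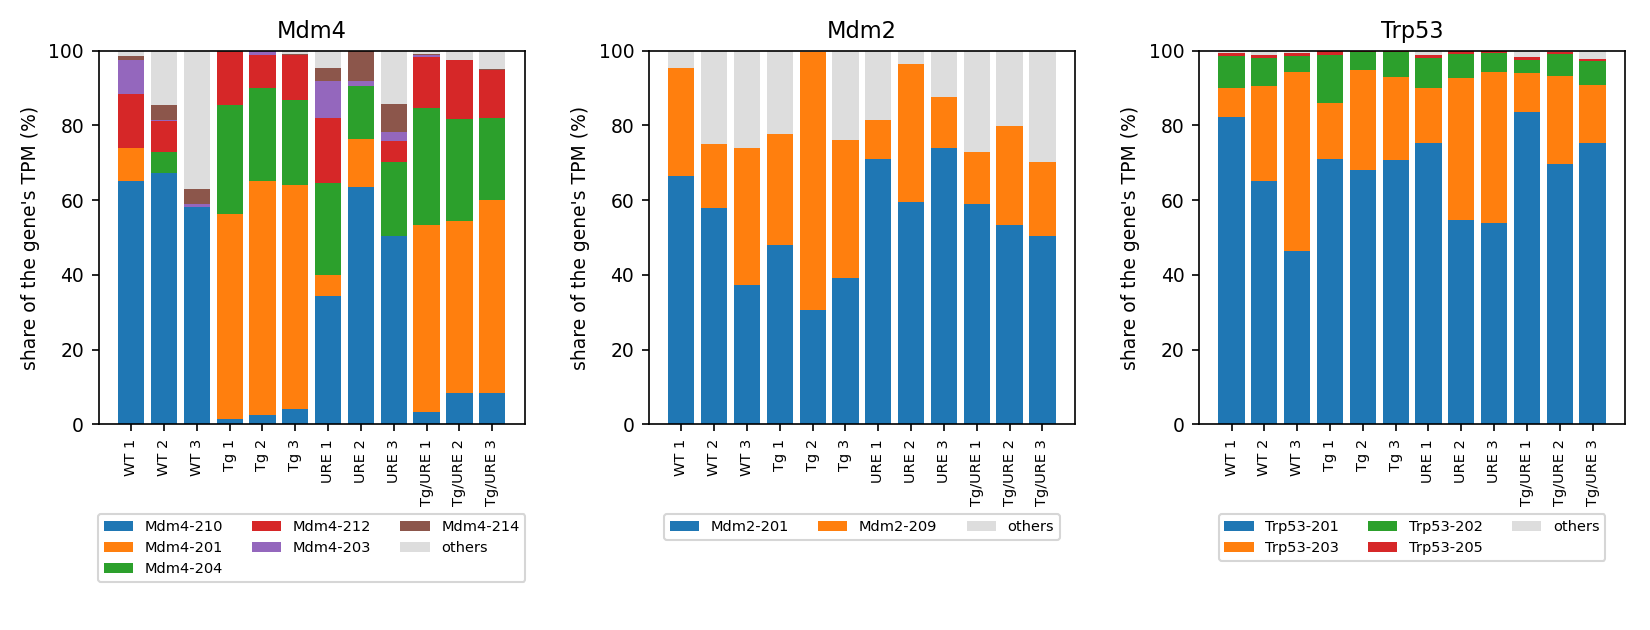
Share of each gene's summed TPM (y axis, percent) taken by its transcripts in the 12 libraries (x axis; WT is Wild-type, Tg is Mdmx-Tg, URE is Pu.1-URE-/-, Tg/URE is the double mutant). Mdm4-201 fills 46.2% to 62.5% of the Mdm4 bar in the 6 carriers, while the split between Trp53-201 and Trp53-203 rests on 1 base and is not read as a result.

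The reads of Mdm2 were divided mainly between Mdm2-201 and Mdm2-209. The full-length Mdm2-201, 12 exons and 3099 bases, had 1279, 1671 and 1149 reads in Wild-type, 1542, 854 and 953 in Mdmx-Tg, 3189.9, 1327 and 2158 in Pu.1-URE-/- and 2262, 2099 and 2104 in the double mutant. Apart from Pu.1-URE-/- 2, all libraries without the element lie above all libraries with it. The log2 change for the element was 0.83 ± 0.28 (edgeR adjusted p = 0.158), with 2.56% of transcripts called, and for the transgene -0.20 ± 0.27 (edgeR adjusted p = 0.868).

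Mdm2-209, the decay transcript without the 97-base exon, had 492, 433 and 1000.1 reads in Wild-type, 837, 1699.5 and 798 in Mdmx-Tg, 411, 732 and 355 in Pu.1-URE-/- and 473, 929.8 and 729.8 in the double mutant. Mdmx-Tg 2 was the highest library. Its log2 change was -0.49 ± 0.32 for the element (edgeR adjusted p = 0.4999) and 0.68 ± 0.32 for the transgene (edgeR adjusted p = 0.4475).

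In shares of TPM, Mdm2-201 made up 53.9% ± 15.01 in Wild-type, 39.3% ± 8.71 in Mdmx-Tg, 68.2% ± 7.70 in Pu.1-URE-/- and 54.3% ± 4.34 in the double mutant (SD, n = 3 each). Mdm2-209 made up 27.5% ± 9.90, 45.2% ± 21.0, 20.4% ± 14.5 and 20.1% ± 6.37 in the same order. In Mdmx-Tg 2 the decay transcript took 69.1% of the gene's TPM and Mdm2-201 30.7%, the one library of the 12 in which it was the larger. The test of isoform use did not pass for Mdm2 in either contrast (edgeR Simes adjusted p = 0.846 for the transgene), and in the element contrast 0.737% of genes passed this test. The 7 other transcripts of Mdm2 took 0.201% to 29.7% of its TPM together.

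The reads of Trp53 fell mainly on a pair of transcripts that nearly coincide. Trp53-203 is Trp53-201 without its last base, 1771 against 1772 bases, so the division of reads between them (8.69% to 50.6% to Trp53-203) cannot be read, and they were summed. Together, as the form with the standard acceptor of the last exon, they had 12889, 18914 and 25504 reads in Wild-type, 11148, 7709 and 19198 in Mdmx-Tg, 11649.9, 16621 and 13852 in Pu.1-URE-/- and 13421, 16479.9 and 11786 in the double mutant. The log2 change was -0.29 ± 0.19 for the transgene (edgeR adjusted p = 0.611) and -0.13 ± 0.19 for the element (edgeR adjusted p = 0.849).

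The form with the upstream acceptor, Trp53-202, had 1274, 1624 and 1199.9 reads in Wild-type, 1718, 409 and 1438 in Mdmx-Tg, 1045, 1196 and 767 in Pu.1-URE-/- and 515, 1092 and 862 in the double mutant. Mdmx-Tg holds both the highest and the lowest library. Its share of Trp53 TPM was 3.50% to 12.8%, with a mean of 6.73% ± 3.22 in carriers and 6.63% ± 1.68 in non-carriers (SD, n = 6 each). Trp53-206, which shares the upstream acceptor, was listed at 0 in all 12 libraries. By gene, isoform use of Trp53 did not pass in either contrast (edgeR Simes adjusted p = 0.860 for the transgene and 0.728 for the element).

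Levels of the 3 genes can be set against each other per transcript length, as the TPM of their protein-coding transcripts. TPM is not scaled for differences between libraries, such as the immunoglobulin share (31.2% in Wild-type 1, 0.427% in Wild-type 3). The genes are therefore compared as ratios within a library. In Wild-type, Mdm4 stood at 5.99, 8.83 and 5.80 TPM, Mdm2 at 5.11, 10.4 and 7.73 TPM and Trp53 at 105, 223 and 332 TPM. The ratio of coding Mdm4 to coding Mdm2 was 0.5715 to 1.17 in the 6 non-carriers, on either side of 1. In carriers it was 24.0, 33.9 and 12.3 in Mdmx-Tg and 9.72, 4.199 and 5.39 in the double mutant. The difference in this ratio between Mdmx-Tg and the double mutant was not tested.

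Trp53 coding RNA exceeded Mdm4 coding RNA 12.8-fold to 57.3-fold in the non-carriers. In Mdmx-Tg 1 and 2 the order was turned, with Trp53 at 0.612 and 0.518 of Mdm4, and in the other 4 carriers Trp53 stood at 1.18-fold to 3.62-fold. Trp53 over Mdm2 was 7.32-fold to 43.0-fold in all 12 libraries, and carriers (median 14.96) and non-carriers (median 20.97) overlap.

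Among 52 listed regulators of p53, Mdm2 or MDMX, 49 passed the count filter, and in the transgene contrast none was called by edgeR, as for all genes. Their log2 changes had a median of 0.02 beside 0.000164 over all genes tested, 25 of them above 0 and 24 below, and 8 of the 49 had an unadjusted p below 0.05, beside 16.3% of all genes. DESeq2 called 1 higher and 3 lower, beside 484 and 540 of all genes. Usp10, a deubiquitinase of p53, stood at 48.6 to 94.7 CPM in carriers and 75.9 to 99.2 in non-carriers (log2 change -0.52, edgeR adjusted p = 0.156). Chek1, the DNA damage kinase CHK1, stood at 40.1 to 61.3 and 26.5 to 41.2 CPM (0.59, edgeR adjusted p = 0.164). For both genes the groups overlap, Chek1 through Mdmx-Tg/Pu.1-URE-/- 1, which lies below the highest Wild-type library.

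Hipk2, a kinase that phosphorylates p53, stood at 10.98 to 16.9 CPM in carriers and 13.66 to 27.8 in non-carriers (log2 change -0.71, edgeR adjusted p = 0.166). Ywhag, a 14-3-3 protein of the family that binds MDMX, stood at 24.5 to 58.8 and 50.2 to 65.6 CPM (-0.65, edgeR adjusted p = 0.167). In the element contrast 1 regulator rose and 3 fell, where 8.08% of all genes rose and 3.81% fell. The deacetylase gene Hdac1 rose by 0.62 ± 0.18 on the log2 scale, and the nucleolar genes Npm1 (-0.78 ± 0.21) and Gnl3 (-0.65 ± 0.17) and the ribosomal protein gene Rpl11 (-0.59 ± 0.17) fell, each with an edgeR adjusted p of 0.0323 to 0.0464. These calls lie near the threshold. Regulators called higher numbered 1 without Wild-type 1, Pu.1-URE-/- 2 or Mdmx-Tg/Pu.1-URE-/- 3, and 0 without any other single library and with the replicate number as a block. Regulators called lower numbered 0 without Wild-type 2, Wild-type 3, Mdmx-Tg 2, Pu.1-URE-/- 1, Pu.1-URE-/- 3, Mdmx-Tg/Pu.1-URE-/- 1 or Mdmx-Tg/Pu.1-URE-/- 3 and 1 without Mdmx-Tg 3. DESeq2 called 2 regulators higher and 6 lower in this contrast, beside 1638 and 1347 of all genes.

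Of 57 listed p53 target genes, 56 were tested. In the transgene contrast none was called by edgeR, 12 of the 56 had an unadjusted p below 0.05, beside 16.3% of all genes, and 37.5% had a log2 change above 0 (21 genes, with 35 below), beside 50.0% of all genes. The median was -0.22, beside 0.000164 over all genes. DESeq2 called 2 higher and 5 lower, beside 484 and 540 of all genes. The erythroid genes given above also differ in median between carriers and non-carriers. Cdkn1a, the cell cycle inhibitor p21 and a standard readout of p53, was read at 10.9, 16.5 and 13.1 CPM in Wild-type, 12.95, 3.12 and 5.04 in Mdmx-Tg, 25.9, 59.7 and 18.1 in Pu.1-URE-/- and 10.5, 16.1 and 4.90 in the double mutant. Carriers, at 3.12 to 16.1 CPM, and non-carriers, at 10.9 to 59.7, overlap (averaged log2 change -1.33 ± 0.44, edgeR adjusted p = 0.190).

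Phlda3, an inhibitor of AKT, was at 0 CPM in the 3 Mdmx-Tg libraries, 0.523 to 1.23 CPM in the double mutant and 0 to 8.41 CPM in non-carriers (edgeR adjusted p = 0.142), too low for a fold. Steap3, an iron reductase, stood at 10.6 to 37.4 CPM in carriers and 23.95 to 61.0 in non-carriers (log2 change -1.17, edgeR adjusted p = 0.169), and Gtse1, which moves p53 out of the nucleus, at 4.22 to 24.2 and 15.6 to 54.4 CPM (-1.14, edgeR adjusted p = 0.179). Tnfaip8, an inhibitor of apoptosis, went the other way, at 147 to 406 and 133 to 288 CPM (0.70, edgeR adjusted p = 0.156).

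In the element contrast 5 of the 56 target genes rose and 1 fell, where 8.08% of all genes rose and 3.81% fell, so the counts are near those of genes in general. The DNA repair gene Xpc rose 11.5-fold (27.1 ± 4.86 CPM with the element, 321 ± 128 without, SD, n = 6 each; edgeR adjusted p = 1.58e-05). The apoptosome gene Apaf1 rose 2.32-fold, the membrane protein gene Perp 4.51-fold, Abhd4 2.08-fold and the autophagy gene Dram1 19.8-fold, and the epoxide hydrolase gene Ephx1 fell 4.24-fold (edgeR adjusted p 0.00539 to 0.0416 for these 5). The list's median was 0.10, with 30 genes above 0 and 26 below, beside -0.000451 over all genes. Target genes called higher numbered 2 without Mdmx-Tg/Pu.1-URE-/- 1 and 3 without Wild-type 1, Wild-type 3 or Pu.1-URE-/- 3. Those called lower numbered 0 without Wild-type 2, Pu.1-URE-/- 1 or Pu.1-URE-/- 3 and with the replicate block, and 2 without Wild-type 3, Pu.1-URE-/- 2 or Mdmx-Tg/Pu.1-URE-/- 3. DESeq2 called 6 higher and 5 lower. The neutrophil and granulocyte-monocyte progenitor genes given above differ between the same groups.

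Across the 12 libraries, the genes whose log2 CPM ran most like Mdm4 among 9367 protein-coding genes were Nipbl (Pearson r = 0.91), which encodes the cohesin loader, Pdcl3 (0.91) and Lsm10 (0.90). For Mdm2 they were Ptafr, the receptor of platelet-activating factor (0.91), Ahsa2 (0.89) and Cyp39a1 (0.88), and for Trp53 they were Diablo, the mitochondrial antagonist of apoptosis inhibitors (0.95), Drg2 (0.95) and Nudt19 (0.95). Between the 3 genes, r was 0.44 for Mdm4 with Mdm2, -0.70 for Mdm4 with Trp53 and -0.52 for Mdm2 with Trp53. The 12 points share their genotypes and library scaling, so these values are descriptions. Diablo had 16.0 CPM in Mdmx-Tg 2, the library in which Trp53 was also lowest, and 60.5 to 109 CPM in the 9 libraries outside Mdmx-Tg.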

How the data were processed

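RNA was enriched for polyA and sequenced as paired 100-base reads on a BGISEQ-500, per the labels' protocols. The submitters' processing notes name FastQC, Salmon, DESeq2 and both mm10 and GRCm38; versions and settings are not given in the sources used here. Per the file headers, the deposited columns are Salmon's: an estimated count for every transcript, 35.3% of them not whole, and the authors' TPM. Of 116248 transcripts, 115995 (99.8%) matched GENCODE M21.

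Estimated counts were summed per gene (or kept per transcript), rounded, filtered with filterByExpr (minimum count 10, total 15), scaled by TMM and fitted with edgeR 4.0.16 in R 4.3.3 (quasi-likelihood, 1 mean per genotype, 12 libraries, 15012 genes). Isoform use was tested with diffSpliceDGE, and adjusted p-values are Benjamini-Hochberg over all features tested, with a threshold of 0.05. The p-values of the gene and transcript fits measure the spread between libraries. Those of isoform use pool that spread over the transcripts of a gene, as if these were independent of each other. All leave out the error of assigning reads to overlapping transcripts. In simulated data for the transgene contrast (15012 genes), 100 genes were changed 4-fold and 100 8-fold, in both directions and all above a minimum level. Of these, 69% and 84% were recovered, and 4.97% of the calls were false. The share recovered depends on how many genes change, and edgeR called no gene in the real contrast. These values are therefore not the power of that contrast. The genes, lists and naming rule (called list members, the 4 of each list with the smallest p in the transgene contrast, Cdkn1a, and the 3 most alike genes) were chosen with earlier results of these data known. Alternatives included DESeq2 1.42.0, limma-voom 3.58.1, other filters, scalings and covariates, and each library left out. A sum over transcripts with the same introns was chosen after seeing the data.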

Additional observations from a re-analysis of the deposited data

How the results depend on the processing

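Of 873 values recomputed under alternatives for 64 results, 797 kept their direction and side of the threshold or moved little, and 22 changed sign. Mdm4 in the averaged transgene contrast passed with the transcript length offset (3.71), with DESeq2 (2.07) and without Mdmx-Tg 3, and ranged from 1.89 to 2.25 with single libraries left out. In the averaged element contrast, Mdm4 ranged from -0.36 to 0.0059 with single libraries left out, was 0.045 without Wild-type 1, Mdmx-Tg 2 and the double mutant 3 together, and Trp53 was 0.046 with the mouse number series as a factor and -0.23 to 0.011 with single libraries left out. The replicate block changed no call of the 3 genes: the averaged transgene change of Mdm4 was 2.03 (edgeR adjusted p = 0.0967).

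Same-numbered libraries did not deviate together (r from -0.153 to 0.0856 over 18 pairs), and 4 of 12 correlated best with their own number. With the block, 2351 genes had an unadjusted p below 0.05 in the transgene contrast and 1555 were called in the element contrast. DESeq2 called 1024 and 2985, and edgeR 0 and 1785. Reversals in the other contrasts were of small changes. Trp53 in the double mutant against Pu.1-URE-/- was 0.000826 with CPM over 1, 0.054 with Y-linked expression, 0.0016 without immunoglobulin genes, 0.021 without the 3 libraries and -0.117 to 0.075 with single libraries left out. Trp53 in the double mutant against Mdmx-Tg was -0.078 without the 3 libraries and -0.109 to 0.414 with single ones left out. With the mouse number series, Pu.1-URE-/- against Wild-type gave -0.17 for Mdm4 and 0.085 for Trp53, and the interaction of Trp53 was -0.078. Pu.1-URE-/- and Wild-type share a run of mouse numbers only through library 1 of each. The interaction of Mdm2 was 0.081 with the length offset, 0.043 with limma-voom and -0.319 to 0.270 with single libraries left out. With single libraries left out, Mdm2 in the double mutant against Pu.1-URE-/- ranged from -0.126 to 0.461, and Mdm2-201 in the transgene contrast from -0.36 to 0.0046. By estimated reads rather than TPM, the mean share of Mdm4-201 was 76.2% in Mdmx-Tg and 58.1% in the double mutant, and that of Mdm4-210 90.6% in Wild-type, 13.8% in Mdmx-Tg, 86.5% in Pu.1-URE-/- and 30.4% in the double mutant. The cause of these shifts was not tested.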
